A study of Homo sapiens with 6 samples.

Results

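The Sm core protein genes encode the subunits of the ring that sits on spliceosomal small nuclear RNAs (snRNAs). They were taken by symbol: SNRPB, SNRPN, SNRPD1, SNRPD2, SNRPD3, SNRPE, SNRPF and SNRPG. These 8 genes of 63190 had 50 transcripts of the 207167 in the table, and all 50 are accounted for here. Averaged over the 6 libraries, a level of 1 RPKM (reads scaled to transcript length and sequencing depth) or more was reached by 34 transcripts and, after summing transcripts, by 7 genes. The 16 transcripts below it were 10 of SNRPN, 3 of SNRPG, 2 of SNRPD2 and 1 of SNRPD3.

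The RNA-seq compared 3 libraries of cells that overexpressed the DIS3L2 mutant D391N with 3 libraries of control cells. The sample labels name the line HEK293, a human embryonic kidney line, and the study's methods describe HEK293T-Rex cells, in which doxycycline switches on an integrated construct. DIS3L2 is an exonuclease that degrades RNAs with 3′ uridine tails, and D391N carries a substitution in its catalytic site. The sources used here describe no deletion of the cells' own DIS3L2 gene in either group. The D391N libraries came from 1 stable line and the controls from another, so that construct and line cannot be told apart, and whether control cells were given doxycycline is not stated. Where several values are given for a group, they follow replicates 1, 2 and 3. No source used here says that libraries of a group came from separate cultures, so p-values measure only the spread between these libraries. In bulk RNA, fewer cells of a type and less RNA per cell cannot be told apart.

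DIS3L2 (ENSG00000144535), whose reads include those of the construct, was at 369, 467 and 512 RPKM in the D391N libraries and at 11.8, 12.9 and 14.6 RPKM in the control libraries (limma, log2 fold change 5.08 ± 0.18 standard error, adjusted p = 0.000268). Relative depth ran from 0.614 to 1 of the deepest library, control replicate 2. The correlation of transcript levels between replicates (Pearson r, across transcripts, which are not independent) was 0.659 to 0.799 in D391N and 0.891 to 0.918 in control. Of the HEK293 markers, LIN28B was at 28.1 to 31.9 RPKM in D391N and 15.8 to 25.3 RPKM in control (log2 fold change 0.54 ± 0.20, limma, adjusted p = 0.184), and over all libraries NEFL was at 26.9 to 88.0 RPKM, EYA1 at 3.13 to 4.37, PAX2 at 1.31 to 1.93 and NEFM at 0.241 to 0.638. Of the markers of other lineages, CD3E, APOA1 and LUM stayed under 0.23 RPKM and ALB under 1.2 RPKM, PTPRC was at 1.34 to 1.77 RPKM, and DCN was at 3.04 to 6.23 RPKM in D391N and 2.01 to 2.50 RPKM in control.

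The Sm proteins form a ring around a uridine-rich site of the U1, U2, U4 and U5 snRNAs and of their counterparts in the minor spliceosome. After an snRNA precursor leaves the nucleus, the pICln and PRMT5 complexes prepare the Sm proteins, and the SMN complex places them on the RNA. The ring is needed for cap hypermethylation, for re-import into the nucleus and for protection of the snRNA. SNRPB encodes SmB and SmB′ by alternative splicing, SNRPN encodes the related SmN, which is abundant in brain, and the remaining genes encode the SmD1, SmD2, SmD3, SmE, SmF and SmG subunits. SNRPB is a known case of self-regulation, in which the protein promotes inclusion of an exon with a premature stop codon and the transcript is then degraded by nonsense-mediated decay (NMD).

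The splice choices behind the main isoform differences are shown as junction sequences, 15 bases of the upstream exon in lower case and up to 15 bases of the next exon in capitals, 5′ to 3′. Sequences and positions are from GENCODE v44 lifted to GRCh37, whereas the levels were estimated on Ensembl transcripts of GRCh38, and the models were joined by transcript identifier. In SNRPB (minus strand), the decay transcript ENST00000474384 joins exon 2 to an extra exon of 124 bases (chr20:2447838-2447961), and SmB and SmB′ differ by the acceptor of the last exon (chr20:2442288-2442585 for SmB and chr20:2442280-2442439 for SmB′).
SNRPB exon 2 to exon 3: gttcagaaagatcaaGCCAAAGAACTCCAA
SNRPB exon 2 to decay exon: gttcagaaagatcaaGTGTGTGAGGGGGGA
SNRPB exon 6 to distal acceptor (SmB′): cccctgggatgcgagGGCCCCCTCCCCCGG
SNRPB exon 6 to proximal acceptor (SmB): cccctgggatgcgagGCCTTCTTTGA
The SmB line ends at its stop codon, 11 bases into the exon. In the decay exon the reading frame closed after 58 bases, leaving a coding sequence of 70 codons against 231 for SmB and 240 for SmB′. Its end is shown with the stop codon in capitals.
SNRPB decay exon, premature stop: tggcctcattgcctatttgtaaagctgTAG

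In SNRPD3 (plus strand), ENST00000402849 leaves exon 3 for an acceptor (exon at chr22:24967986-24968029) downstream of the usual one (chr22:24967884-24970939), which changes the end of the reading frame and gives 120 codons instead of 126. In SNRPF (plus strand), ENST00000553192 replaces the usual exon 3 (chr12:96259102-96259166) by an alternative last exon (chr12:96273466-96273779) and has 67 codons instead of 86. In SNRPD1 (plus strand), ENST00000579618 uses a downstream acceptor within exon 3 (chr18:19203836-19203900 instead of chr18:19203709-19203900), has 44 codons and ends its frame 44 bases into that exon, against 119 codons in ENST00000300413.
SNRPD3 exon 3 to usual exon 4: ttctcaaggcccaagTGGCCGCAAGAGGAA
SNRPD3 exon 3 to downstream acceptor: ttctcaaggcccaagGTTATCTGAGTTCAT
SNRPF exon 2 to usual exon 3: tacatgaacatgcagCTTGCAAATACAGAA
SNRPF exon 2 to alternative last exon: tacatgaacatgcagATTTTCATCTACATC
SNRPD1 exon 2 to usual exon 3: atggaacaatcacagGTGTGGATGTCAGCA
SNRPD1 exon 2 to downstream acceptor: atggaacaatcacagTTTACCTCTGGATAC

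At the gene level, no Sm core gene passed the test between D391N and control cells. The sums of SNRPB, SNRPD2 and SNRPG were lower in all D391N libraries than in all control libraries, SNRPD1, SNRPD3, SNRPE and SNRPF overlapped between the groups, and SNRPN was close to undetected. In limma on log2(RPKM + 0.1) with Benjamini-Hochberg adjustment over 20714 genes, 0 of the 7 tested genes had an adjusted p under 0.05, beside 0.14% of all genes, and 3 had an unadjusted p under 0.05, beside 22.7%. Groups without overlap and lower in D391N were found in 3 of 7 genes, beside 20.7% of all genes, and higher in 0, beside 10.5%. The median log2 fold change was 0.03 over the 7 genes and -0.09 over all genes. Centring each library on its median moved these medians to 0.25 and 0.13, left SNRPD2 alone below the controls without overlap and put SNRPD1 above them, and turned the split of all genes without overlap from 2167 higher and 4286 lower to 4394 higher and 2384 lower. The 7 genes together summed to 964, 966 and 1107 RPKM in D391N cells and to 1220, 1182 and 931 RPKM in control cells.

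**Figure D1:**
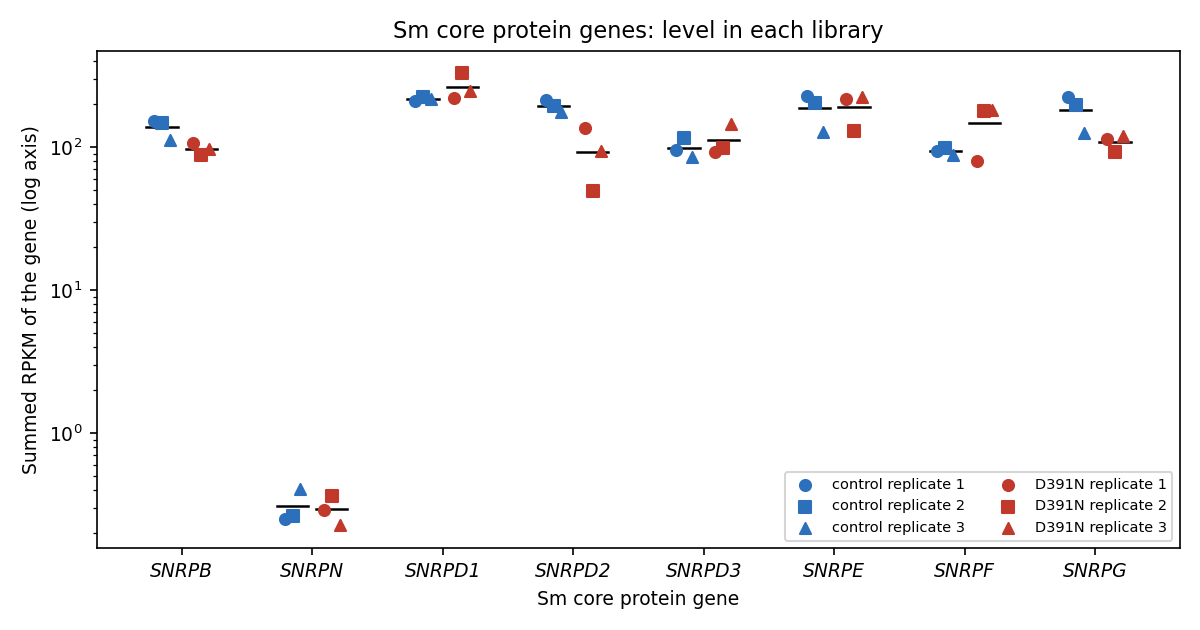
Summed RPKM (log axis) of each Sm core gene in each library, with control in blue, D391N in red, symbols for the replicates and black lines for group means. SNRPB, SNRPD2 and SNRPG had every D391N point below every control point, and SNRPN lay under 0.5 RPKM in all libraries.

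In control cells the order of the gene levels, all in RPKM and so per transcript length, was SNRPD1 (218 ± 7.24, SD, n = 3), SNRPD2 (194 ± 18.3), SNRPE (187 ± 52.4), SNRPG (183 ± 50.8), SNRPB (138 ± 21.8), SNRPD3 (98.6 ± 15.3) and SNRPF (93.7 ± 5.34). The ranges of each pair of neighbours in this order overlapped, by little for SNRPD1 and SNRPD2 and for SNRPB and SNRPD3. In D391N cells SNRPD1 was again highest (264 ± 56.9) and SNRPD2 was lowest of the 7 (92.9 ± 42.8), with a range from 49.8 to 135 RPKM.

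SNRPB (ENSG00000125835; chr20:2442280-2451499) was at 106, 88.2 and 97.4 RPKM in D391N and at 153, 148 and 113 RPKM in control. All D391N libraries were thus below all control libraries, at 70.4% of the control mean. The log2 fold change was -0.50 ± 0.18 (limma, standard error, adjusted p = 0.176), and the exact permutation test gave p = 0.10 (two-sided), the smallest that 3 libraries against 3 allow. Another gene model, ENSG00000256566, overlaps SNRPB exons on the same strand and holds 11.8% to 23.8% of the 31-base words of the SNRPB transcripts. It was at 33.6, 11.3 and 8.11 RPKM in D391N and at 19.4, 23.0 and 24.7 RPKM in control, and its part in the SNRPB values was not tested.

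Within SNRPB, all 3 D391N libraries had less SmB than any control library, but no SNRPB isoform ratio passed the test. SmB (ENST00000381342) was at 7.86, 2.58 and 8.71 RPKM in D391N and at 32.9, 26.3 and 22.5 RPKM in control. Its log2 fold change was -2.24 ± 0.49 (limma, adjusted p = 0.13), and its ratio to the other SNRPB transcripts differed by -1.96 ± 0.50 on the log2 scale (limma, adjusted p = 0.176). Without D391N replicate 1, the SmB level passed (log2 fold change -2.48, limma, adjusted p = 0.041), where 9.07% of all transcripts did, but its ratio did not (-2.14, limma, adjusted p = 0.061). SmB′ (ENST00000438552) had nearly equal means of 62.9 ± 11.3 and 63.1 ± 2.18 RPKM (SD, n = 3 each), with a log2 fold change of -0.02 ± 0.24 (limma, adjusted p = 0.972). As a share of SmB and SmB′ together, SmB made up 9.89%, 4.89% and 11.5% in D391N and 33.5%, 30.2% and 26.3% in control. This share leaves out ENST00000339610, whose product is not given in the annotation used here and which was at 15.1 to 45.8 RPKM, above SmB in all 6 libraries. The difference of -21.2 percentage points had p = 0.10 in the two-sided exact permutation test. ENST00000339610, which has no entry in GENCODE v44, was at 15.1 to 33.2 RPKM in D391N and 23.1 to 45.8 RPKM in control. BitSeq divides shared reads among isoforms, and the posterior SD of SmB on the log2 scale reached 0.56 in D391N and 0.19 in control.

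The decay isoform of SNRPB did not differ detectably between the groups. ENST00000474384 was at 11.5, 2.30 and 6.47 RPKM in D391N and at 10.5, 14.8 and 4.30 RPKM in control. It held 10.9%, 2.61% and 6.65% of SNRPB RPKM in D391N and 6.87%, 10.04% and 3.80% in control, with means of 6.70% ± 4.13 and 6.90% ± 3.12 (SD, n = 3 each). The groups overlapped throughout, and the difference of -0.20 percentage points had p = 0.90 (two-sided exact permutation test). Leaving out single libraries moved it between -2.28 and 1.85 percentage points, turning its sign without D391N replicate 2 and without control replicate 2.

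SNRPN (ENSG00000128739; chr15:25068784-25223870), the gene of SmN, summed to 0.227 to 0.363 RPKM in D391N and 0.252 to 0.410 RPKM in control. None of its 10 transcripts exceeded 0.194 RPKM in any library, and 47 of their 60 values had a posterior variance above 1.5, as transcripts without assigned reads do. SNURF, which shares exons with SNRPN, was as low. No fold change is given at this level. Of the RPKM listed under SNRPB and SNRPN, SNRPB transcripts thus carried nearly all. Another gene model, ENSG00000214265, overlaps SNRPN exons on the same strand. Its level was not examined, and its part in the low SNRPN values was not tested.

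SNRPD1 (ENSG00000167088; chr18:19192275-19213485) was at 219, 328 and 246 RPKM in D391N and at 212, 226 and 216 RPKM in control. The lowest D391N library lay within the control range, and the log2 fold change was 0.26 ± 0.20 (limma, adjusted p = 0.473). Its 3 transcripts did not all differ in 1 direction. ENST00000300413, the longest at 4858 bases, was at 22.6, 47.6 and 47.9 RPKM in D391N and 18.4, 19.5 and 16.9 RPKM in control (log2 fold change 1.03 ± 0.35, limma, adjusted p = 0.219). ENST00000582475, with 75 codons, was also higher in each D391N library (110 to 193 RPKM against 87.0 to 102 RPKM; 0.58 ± 0.29). The frame-shortened ENST00000579618, whose junction is shown above, was instead lower in each D391N library, at 86.7, 87.8 and 70.7 RPKM against 107, 105 and 108 RPKM. Its share of SNRPD1 was 31.7% ± 6.88 in D391N and 48.9% ± 2.18 in control (SD, n = 3 each), a log2 ratio change of -1.06 ± 0.33 (limma, adjusted p = 0.221). Without D391N replicate 1, the level of ENST00000300413 (log2 fold change 1.38, limma, adjusted p = 0.0214) and the ratio of ENST00000579618 (-1.32, limma, adjusted p = 0.0428) passed. So did 9.07% of all transcripts and 8.2% of all ratios.

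SNRPD2 (ENSG00000125743; chr19:46190718-46195827) had the lowest fitted fold change of the 7 genes. It was at 135, 49.8 and 93.4 RPKM in D391N and at 212, 193 and 176 RPKM in control. Every D391N library was below every control library, but the D391N libraries also differed from each other, with an SD of 42.8 RPKM. The log2 fold change was -1.17 ± 0.35 (limma, adjusted p = 0.14), and without D391N replicate 1 it was -1.50 (limma, adjusted p = 0.0325), where 10.9% of all genes passed. Without D391N replicate 2, the library with the lowest level, it was -0.78 (limma, adjusted p = 0.148). The difference lay in the main transcript, ENST00000588301, which held 79.4% to 92.3% of SNRPD2 in each library. It was at 125, 39.5 and 82.8 RPKM in D391N and 191, 176 and 159 RPKM in control (log2 fold change -1.23 ± 0.43, limma, adjusted p = 0.231, and -0.78 without D391N replicate 2). ENST00000391932 (108 codons, at 4.14, 1.84 and 2.72 RPKM against 8.78, 8.25 and 6.81 RPKM) and ENST00000590212 (78 codons, at 0.713, 0.379 and 0.268 RPKM against 5.28, 2.48 and 2.18 RPKM) were lower without overlap as well. Their log2 fold changes were -1.49 ± 0.34 and -2.60 ± 0.51 (limma, adjusted p = 0.14 and 0.114). Each of these transcripts passed without D391N replicate 1, where 9.07% of all transcripts did. For ENST00000590212 the value of D391N replicate 3 was that of a transcript without assigned reads. Its posterior SD on the log2 scale reached 1.86 in D391N and 1.11 in control, and its log2 fold change ran from -2.91 to -1.51 over all settings tried. ENST00000342669, ENST00000587367 and ENST00000588599, with means of 1.85, 2.90 and 1.86 RPKM, overlapped between the groups.

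SNRPD3 (ENSG00000100028; chr22:24951926-24978020) was at 92.5, 98.4 and 146 RPKM in D391N and at 95.8, 115 and 84.9 RPKM in control. The groups overlapped, and the log2 fold change was 0.17 ± 0.23 (limma, adjusted p = 0.691). One of its isoforms had the smallest p of all 34 member transcripts. ENST00000402849, with the downstream acceptor shown above, was at 18.5, 37.3 and 18.7 RPKM in D391N and at 1.99, 1.89 and 0.912 RPKM in control. All D391N libraries were far above all control libraries, with a log2 fold change of 3.87 ± 0.42 (limma, adjusted p = 0.0593), just above the threshold of 0.05. Over the settings tried its adjusted p in limma ran from 0.0116 (without D391N replicate 1, where 9.07% of all transcripts passed) to 0.297 (without control replicate 2). With a pseudocount of 0.5 or 1 or with quantile normalization it was 0.04, 0.0391 and 0.0485, where 0.124%, 0.26% and 0.0841% of all transcripts passed. Its share of SNRPD3 was 20.03%, 37.8% and 12.8% in D391N and 2.08%, 1.641% and 1.07% in control, a log2 ratio change of 4.08 ± 0.60 (limma, adjusted p = 0.0811). In GENCODE v44, 72.4% of its 31-base words also occur in ENSG00000286070, a gene model that covers SNRPD3 and reaches GGT1, and its posterior SD was up to 0.47 in D391N and up to 1.78 in control, where 1 value was that of a transcript without assigned reads.

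The other abundant SNRPD3 transcripts varied within D391N. ENST00000404603, listed under SNRPD3 in the table but assigned to ENSG00000286070 in GENCODE v44 and annotated there as an NMD transcript, was at 26.0, 38.9 and 107 RPKM in D391N and 54.6, 78.0 and 54.8 RPKM in control. The usual ENST00000215829 was at 46.5, 12.5 and 17.4 RPKM in D391N and 36.6, 31.6 and 27.97 RPKM in control. D391N replicate 1 was thus highest of all libraries for ENST00000215829 and lowest of all for ENST00000404603. In GENCODE v44 both transcripts have a coding sequence of 126 codons. The log2 ratio of ENST00000215829 to the rest of SNRPD3 differed by -0.84 (limma, adjusted p = 0.596) with all libraries. It differed by -1.79 without D391N replicate 1 (limma, adjusted p = 0.0327), where 8.2% of all ratios passed, and by -0.39 and -0.34 without D391N replicates 2 and 3. Leaving ENST00000404603 out of the sum gave SNRPD3 66.5, 59.5 and 39.2 RPKM in D391N and 41.2, 37.1 and 30.1 RPKM in control, which still overlapped (two-sided exact permutation test, p = 0.20). The intron-retaining ENST00000468770 was at 1.32 to 9.47 RPKM in D391N and 0.936 to 3.44 RPKM in control.

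SNRPE (ENSG00000182004; chr1:203830727-203840280) was at 217, 130 and 223 RPKM in D391N and at 229, 203 and 128 RPKM in control. The groups spanned nearly the same range, with a log2 fold change of 0.03 ± 0.31 (limma, adjusted p = 0.97). Most of this RPKM belonged to ENST00000475035, for which GENCODE defines no coding sequence and which made up 74.8% ± 5.98 in D391N and 60.4% ± 4.39 in control (SD, n = 3 each). Its share was higher in each D391N library than in any control library, but its ratio did not pass (log2 change 0.98 ± 0.35, limma, adjusted p = 0.26). The full coding transcript ENST00000414487 (92 codons) was at 15.6, 16.8 and 20.3 RPKM in D391N and at 19.7, 22.2 and 11.996 RPKM in control, again with overlap.

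The largest isoform difference in SNRPE was in ENST00000367208, which has 3 exons and 52 codons. It was at 3.90, 0.157 and 0.174 RPKM in D391N and at 56.8, 14.1 and 19.0 RPKM in control. Its log2 fold change was -5.25 ± 1.13 (limma, adjusted p = 0.128), and its ratio to the other SNRPE transcripts differed by -5.52 ± 1.08 (limma, adjusted p = 0.119). In D391N replicates 2 and 3 it was at the level of transcripts without assigned reads, so the fitted value depends on the pseudocount and ran from -6.55 to -3.79 over all settings tried. Without D391N replicate 1 both level and ratio passed (limma, adjusted p = 0.00736 and 0.00938), where 9.07% of all transcripts and 8.2% of all ratios did. The D391N values left in that fit were those of a transcript without assigned reads, so their agreement does not measure the spread of its level. ENST00000470492 was at 2.69, 0.130 and 0.414 RPKM in D391N and 1.26, 10.7 and 4.73 RPKM in control, with overlap, while ENST00000469451 and ENST00000483099 had log2 fold changes of 0.22 ± 0.55 and 0.29 ± 0.29. SNRPE isoforms shared 14.9% to 51.7% of their 31-base words with other genes, mostly SNRPE pseudogenes, so that their division among copies is uncertain.

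SNRPF (ENSG00000139343; chr12:96252730-96297606) was at 79.4, 178 and 183 RPKM in D391N and at 94.3, 98.7 and 88.1 RPKM in control. D391N replicate 1 was below every control library and the other D391N libraries were above every one, and the log2 fold change was 0.55 ± 0.33 (limma, adjusted p = 0.358). Without D391N replicate 1 it was 0.95 (limma, adjusted p = 0.0221), where 10.9% of all genes passed. Without D391N replicate 2 or 3 it was 0.36 or 0.35 (limma, adjusted p = 0.59 and 0.585). The split came from ENST00000553192, with the alternative last exon shown above, at 7.49, 125 and 106 RPKM in D391N and 10.8, 14.9 and 13.2 RPKM in control. It held 9.43%, 70.0% and 57.8% of SNRPF in D391N and 11.5% to 15.1% in control. Its log2 fold change was 1.84 ± 1.03 (limma, adjusted p = 0.386) with all libraries and 3.14 without D391N replicate 1 (limma, adjusted p = 0.00521), where 9.07% of all transcripts passed. Without D391N replicate 2 or 3 it was 1.12 or 1.25 (limma, adjusted p = 0.665 and 0.584).

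Without ENST00000553192, SNRPF summed to 71.9, 53.6 and 77.1 RPKM in D391N and to 83.5, 83.8 and 74.9 RPKM in control (two-sided exact permutation test, p = 0.20), a difference of -0.27 on the log2 scale and so of the opposite sign to the full sum. The alternative last exon lies on the opposite strand to exons of CCDC38, which was at 0.627 to 0.776 RPKM in D391N and 0.677 to 0.688 RPKM in control. The usual coding transcript ENST00000266735 was at 54.4, 39.4 and 61.9 RPKM in D391N and 64.9, 63.1 and 57.1 RPKM in control. The intron-retaining ENST00000551316 was lower in each D391N library (11.9 to 14.2 RPKM against 15.5 to 16.7 RPKM; log2 fold change -0.33 ± 0.21, limma, adjusted p = 0.442), and ENST00000549580 and ENST00000552085 overlapped at means of 1.76 and 1.05 RPKM.

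SNRPG (ENSG00000143977; chr2:70508494-70520872) was at 114, 93.2 and 119 RPKM in D391N and at 224, 198 and 126 RPKM in control. The D391N libraries were all below the control libraries, although D391N replicate 3 and control replicate 3 lay close together. The log2 fold change was -0.72 ± 0.25 (limma, adjusted p = 0.169). The level was mostly that of ENST00000488400, an intron-retaining transcript with no coding sequence, which held 83.7% ± 1.96 in D391N and 84.4% ± 0.94 in control (SD, n = 3 each) and had a log2 fold change of -0.73 ± 0.30 (limma, adjusted p = 0.273). The coding transcript ENST00000272348 (76 codons) was at 5.26, 4.19 and 7.75 RPKM in D391N and 4.71, 3.52 and 5.68 RPKM in control, with overlap and a log2 fold change of 0.28 ± 0.33. ENST00000429728 was at 7.76, 3.24 and 4.59 RPKM in D391N and 23.3, 22.6 and 6.72 RPKM in control. ENST00000454893, ENST00000480370 and ENST00000482975, with means from 1.08 to 2.27 RPKM, overlapped between the groups. SNRPG transcripts shared 14.7% to 42.1% of their 31-base words with other genes.

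**Figure D2:**
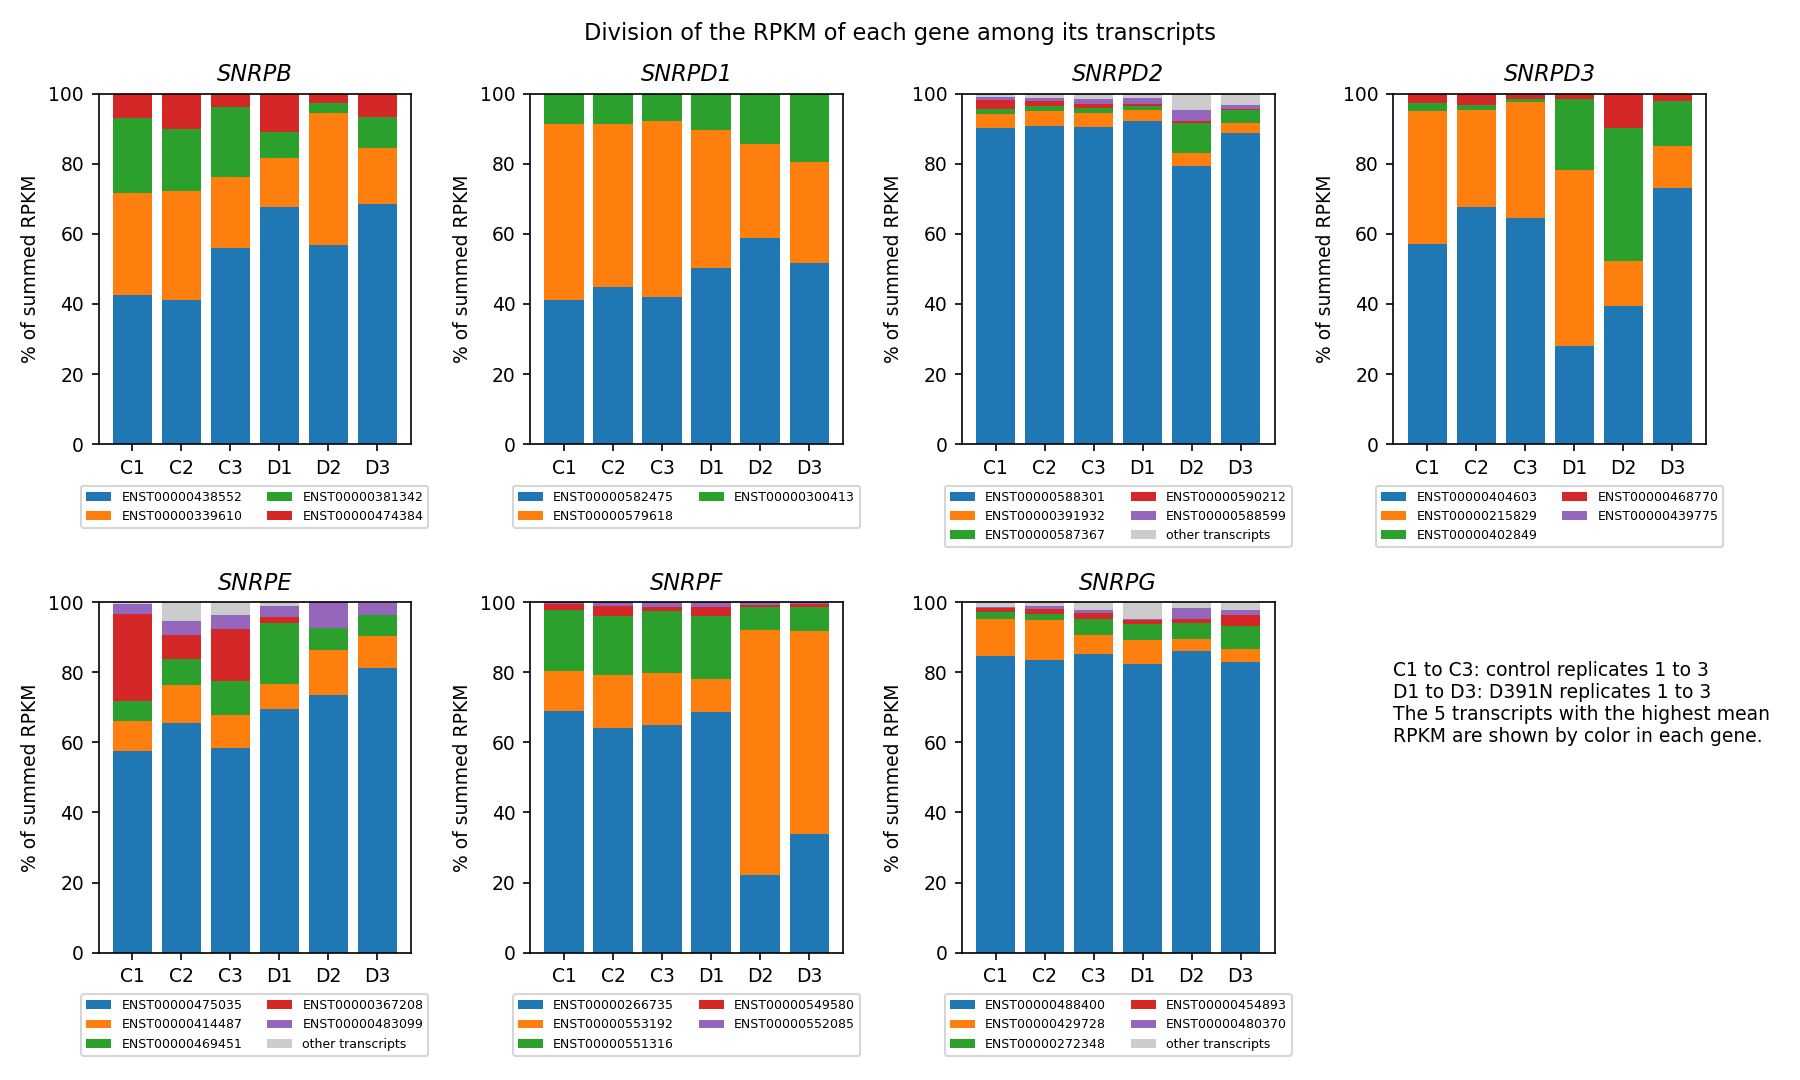
Share of each gene's summed RPKM (percent) held by its transcripts in control replicates 1 to 3 (C1 to C3) and D391N replicates 1 to 3 (D1 to D3), with up to 5 transcripts in color and the rest in gray. SmB (ENST00000381342) was smaller in each D391N library, ENST00000402849 of SNRPD3 was larger, and ENST00000553192 of SNRPF was larger in D391N replicates 2 and 3 but not in replicate 1.

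Counted over all members, 0 of 34 transcripts had an adjusted p under 0.05 in limma, beside 0.0604% of the 54671 tested, and 9 had an unadjusted p under 0.05, beside 17.6%. The groups did not overlap in 8 transcripts that were lower in D391N, beside 15.6% of all transcripts, and in 3 that were higher, beside 10.1%. For the ratio of a transcript to the rest of its gene, 0 of 34 passed, beside 0.0259% of 46337, with 9 at an unadjusted p under 0.05, beside 15.9%. Ratios without overlap were higher in 7, beside 10.3%, and lower in 5, beside 13.0%. Transcripts of a gene share reads, so these counts are not over independent units. Without D391N replicate 1, 8 transcripts passed (3 higher and 5 lower, beside 9.07%), 2 genes (SNRPF higher and SNRPD2 lower, beside 10.9%) and 7 ratios (2 higher and 5 lower, beside 8.2%); without any other single library, 0 did.

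**Figure D3:**
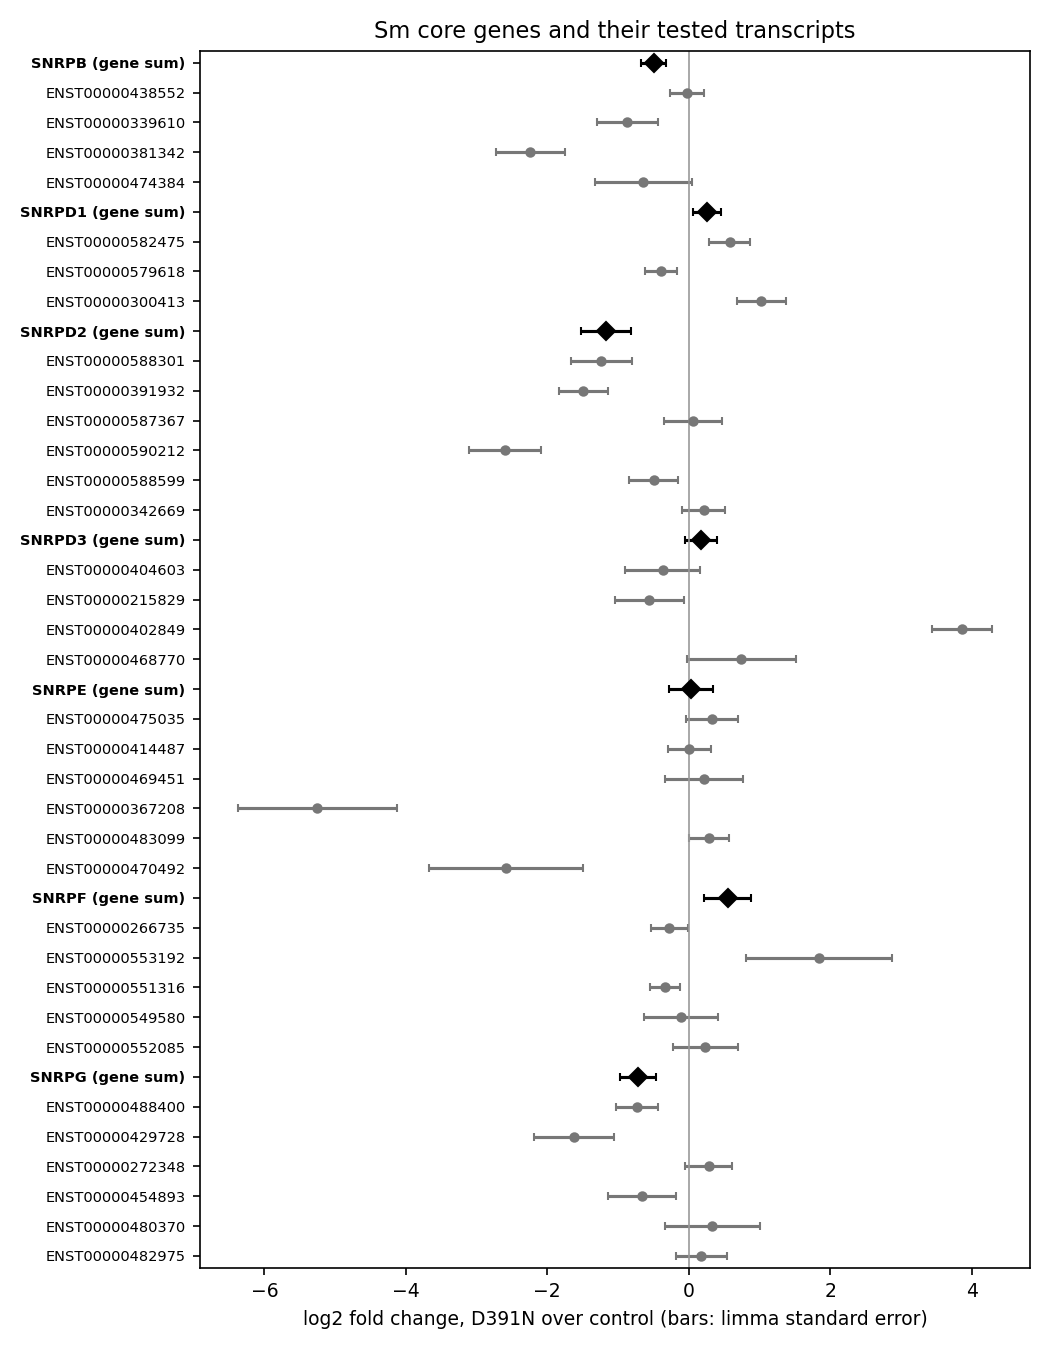
Fitted log2 fold change of D391N over control for the 7 tested genes (black diamonds) and their 34 tested transcripts (gray circles), with limma standard errors as bars. ENST00000402849 of SNRPD3 lies farthest to the right at 3.87 and ENST00000367208 of SNRPE farthest to the left at -5.25, whereas the gene sums lie between -1.17 and 0.55.

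Several Sm core genes have pseudogenes. Of 38 genes named as copies of members or as SNURF, 3 reached a mean of 1 RPKM. ENSG00000233514, a further gene that holds up to 27.6% of the 31-base words of an SNRPD1 transcript, was at 1.10 to 2.63 RPKM in D391N and 1.10 to 3.49 RPKM in control, and ENSG00000256566 is described with SNRPB above. SNRPFP1 was at 13.6, 0.644 and 3.67 RPKM in D391N and 33.7, 21.5 and 45.8 RPKM in control (log2 fold change -3.25 ± 0.97, limma, adjusted p = 0.139). SNRPEP2 was at 14.8, 0.639 and 6.32 RPKM in D391N and 7.41, 6.86 and 3.34 RPKM in control. SNRPEP4 was at 1.45, 1.23 and 2.77 RPKM in D391N and 1.09, 0.268 and 0.961 RPKM in control. SNRPFP1 was thus lower in D391N without overlap, and the part of read sharing with SNRPF in either value was not tested.

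The genes that act on or with the Sm ring were counted in 5 lists, in which 0 genes passed the test with all libraries. Over all 20714 genes, 10.5% were higher and 20.7% were lower in D391N without overlap, and with median centring 4394 were higher and 2384 lower, so the counts of each list are given on both scales. Among 19 genes of U snRNP proteins outside the Sm ring, 3 were higher and 2 lower without overlap (beside 10.5% and 20.7% of all genes), and the median log2 fold change was 0.07. With median centring 9 were higher and 1 was lower. SNRNP70, the U1 protein that binds the first U1 stem-loop, was at 107, 74.0 and 88.9 RPKM in D391N and 146, 153 and 121 RPKM in control (log2 fold change -0.65 ± 0.19, limma, adjusted p = 0.136). PRPF8, the U5 scaffold of the catalytic center, was at 147, 165 and 109 RPKM in D391N and 84.5, 83.6 and 97.8 RPKM in control (0.64 ± 0.20, limma, adjusted p = 0.14). SNRNP70 was thus lower and PRPF8 higher in every D391N library.

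Among 15 genes of Sm ring assembly, 1 was higher and 5 were lower without overlap, beside 10.5% and 20.7% of all genes, with a median of -0.09. With median centring 1 was higher and 2 were lower, beside 4394 and 2384 of all 20714 genes, and the median turned to 0.13, that of all genes. PRMT5, which methylates arginines of SmB, SmD1 and SmD3, was at 80.2, 59.5 and 61.0 RPKM in D391N and 121, 126 and 105 RPKM in control (log2 fold change -0.82 ± 0.17, limma, adjusted p = 0.0924). GEMIN7, a subunit of the SMN complex, was at 5.95, 2.93 and 4.83 RPKM in D391N and 7.29, 10.1 and 8.40 RPKM in control (-0.94 ± 0.29, limma, adjusted p = 0.142). SMN1 and SMN2 are near-identical copies whose reads cannot be safely divided, and they had log2 fold changes of 0.11 ± 0.14 and 0.25 ± 0.15.

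Among 8 genes of snRNP maturation and transport, 5 were higher and 1 was lower without overlap, beside 10.5% and 20.7% of all genes, with a median of 0.45. With median centring 7 were higher and 0 lower, beside 4394 and 2384 of all 20714 genes. XPO1, the export receptor of snRNA precursors, was at 268, 423 and 361 RPKM in D391N and 189, 205 and 152 RPKM in control (log2 fold change 0.93 ± 0.23, limma, adjusted p = 0.111). PHAX, its snRNA adaptor, was at 105, 159 and 113 RPKM in D391N and 76.5, 74.9 and 68.3 RPKM in control (0.76 ± 0.19, limma, adjusted p = 0.113). Both genes were above the controls in every D391N library. Among 12 LSM genes, 0 were higher and 1 was lower without overlap, beside 10.5% and 20.7% of all genes, with a median of -0.06. Most of their proteins form related rings. Median centring gave 1 higher and 0 lower, beside 4394 and 2384 of all 20714 genes, and turned the median to 0.16. LSM10, of the U7 ring, and LSM7 had log2 fold changes of -0.44 ± 0.23 and -0.47 ± 0.28 (limma, adjusted p = 0.294 and 0.347).

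Of 19 snRNA symbols, 15 were matched and tested. The snRNAs were the list with the lowest median, -2.53, and 8 of 15 were lower in D391N without overlap, beside 20.7% of all genes, and 0 higher, beside 10.5%. Most of these 8 were U1 genes (RNU1-1, RNU1-2, RNU1-3, RNU1-4 and RNVU1-18), and the others were RNU2-2P, RNU4-1 and RNU4-2. Copies of U1 can share reads, so this count is not over independent units. With median centring 7 were lower and 0 higher, beside 2384 and 4394 of all 20714 genes, with a median of -2.31. With single libraries left out, the median ran from -3.63 (without D391N replicate 1) to -1.42 (without D391N replicate 2). RNU1-3 and RNU1-1, near-identical U1 genes, were at 40.3 to 821 and 45.4 to 477 RPKM in D391N and at 2032 to 3006 and 1552 to 2187 RPKM in control (log2 fold changes -3.57 ± 1.01 and -3.07 ± 0.89, limma, adjusted p = 0.129 and 0.134). D391N replicate 2 had the lowest level of both. Without D391N replicate 1, SNRNP70, PRMT5, LSM7 and 6 snRNAs (RNU1-3, RNU2-2P, RNU5A-1, RNU5B-1, RNU5D-1 and RNU5E-1) were lower and XPO1 and PHAX were higher by the test, beside 10.9% of all genes. With all libraries, these U5 genes overlapped between the groups. In the library left out, RNU5A-1 and RNU5B-1 were at 1352 and 4742 RPKM, above the highest control values of 1235 and 4667 RPKM. RNU5D-1 and RNU5E-1 were within the control range there.

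**Figure D4:**
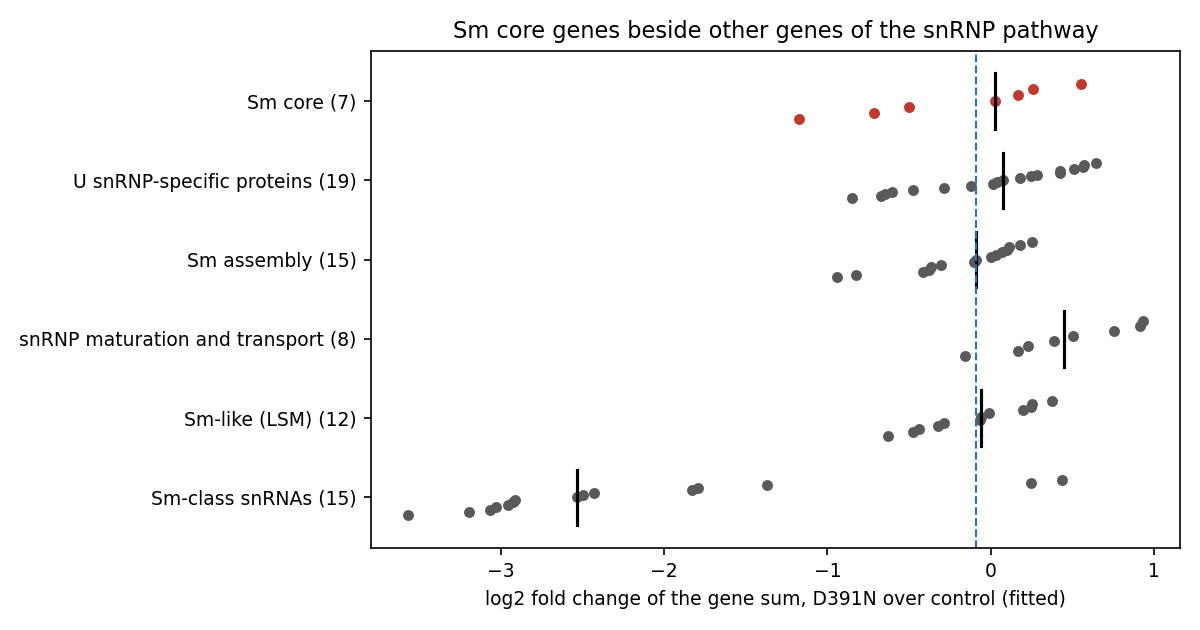
Fitted log2 fold changes (D391N over control) of the 7 Sm core genes in red and of the tested genes of 5 other lists in gray, with the number of genes in brackets, black bars for list medians and a dashed line for the median of all genes. The Sm core genes spread to both sides of that line, between -1.17 and 0.55, and 13 of the 15 snRNAs lie to the left of it.

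Over the 6 libraries, the mean log2 level of the 8 Sm core genes was 5.96, 5.88 and 6.11 in D391N cells and 6.25, 6.24 and 5.99 in control cells. Control replicate 3 thus lay among the D391N libraries. Among 8284 genes averaging 10 RPKM or more, those closest to this profile by Pearson r over the 6 libraries were FZD3 (0.994), FAM168B (0.989), MPZL1 (0.984), CIAPIN1 (0.983) and RNF130 (0.979), and 28 genes had r over 0.95. These correlations describe 6 libraries that share scaling and condition. The mean gives SNRPN, at 0.227 to 0.410 RPKM and mostly without assigned reads, the same weight as each other gene. The part of SNRPN in the profile was not tested.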

How the data were processed

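RNA-seq of rRNA-depleted RNA from 3 D391N and 3 control libraries was used. Reads had been trimmed by the authors (cutadapt), mapped by Segemehl to coding and non-coding Ensembl transcripts of GRCh38 and quantified by BitSeq; versions are not given in the sources used here. The deposited table holds natural log RPKM as a posterior mean, with a posterior variance, for each transcript in each library. The authors' BitSeq test needs posterior samples and was not repeated.

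Natural log values were exponentiated to RPKM. RPKM was summed by Ensembl gene, and log2(RPKM + 0.1) of transcripts, gene sums and isoform ratios was compared where the mean was at least 1 RPKM, with limma 3.58.1 (empirical Bayes with trend, R 4.3.3) and Benjamini-Hochberg adjustment over all features. Fold changes on this scale understate those of low transcripts. Exact permutation tests were two-sided. The fits were tested on simulated data. Relative depth came from the level of transcripts without reads; posterior SDs cover counting and assignment only. Python 3.11.15, pandas 2.3.3, numpy 2.4.6, scipy 1.17.1 and matplotlib 3.10.9 made tables and plots. Symbols were found for 88.2% of genes, and GENCODE models for 49 of the 50 member transcripts.

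Members, lists and tests were chosen with earlier results of these data known. Named were all member genes and tested member transcripts, DIS3L2, the 2 genes of smallest p in each list and the 5 genes closest in profile; RPKM of overlapping models and copies, and SMN1, SMN2 and the list genes called without D391N replicate 1, were added after values were seen. Alternatives were other pseudocounts, filters, scalings, no trend, a replicate block and each library left out.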

Additional observations from a re-analysis of the deposited data

How the results depend on the processing

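With pseudocounts of 0.5 and 1 and with quantile normalization, 1 member transcript was called instead of 0, ENST00000402849 of SNRPD3. Leaving out each library gave 0 to 8 member transcripts, 0 to 2 member genes and 0 to 7 ratios, the upper values all without D391N replicate 1. For the lists, median centring and quantile normalization gave 0 genes called, and leaving out each library gave (all chosen after seeing the data) 0 to 1 genes called for the U snRNP proteins, 0 to 1 for Sm assembly, 0 to 2 for maturation and transport, 0 to 1 for the LSM genes and 0 to 6 for the snRNAs. With single libraries left out, the median log2 fold change of the member genes ran from -0.22 to 0.15 (0.25 with median centring) and the difference in the SNRPB decay share from -2.28 to 1.85 percentage points. SNRPB ENST00000438552 turned to 0.049 with median centring, and with quantile normalization SNRPE ENST00000414487 turned to -0.087, SNRPF ENST00000549580 to 0.12 and the ratio of SNRPG ENST00000488400 to 0.024. Among single members, leaving out each library turned the sign of log2 fold changes that ran from -0.036 to 0.29 for SNRPD3, -0.22 to 0.28 for SNRPE, -0.12 to 0.13 for SNRPB ENST00000438552, -0.21 to 0.48 for SNRPD2 ENST00000587367, -0.95 to 0.069 for SNRPD3 ENST00000404603, -0.26 to 0.18 for SNRPE ENST00000414487, -0.41 to 0.70 for SNRPE ENST00000469451, -0.49 to 0.29 for SNRPF ENST00000549580, -0.054 to 0.46 for SNRPF ENST00000552085 and -0.21 to 1.01 for SNRPG ENST00000480370, and of log2 ratio changes that ran from -0.63 to 0.44 for SNRPB ENST00000474384, -0.80 to 0.019 for SNRPD2 ENST00000588301, -0.25 to 1.14 for SNRPD3 ENST00000468770, -0.27 to 0.20 for SNRPE ENST00000414487, -0.35 to 0.53 for SNRPE ENST00000469451, -0.13 to 0.55 for SNRPE ENST00000483099, -0.74 to 0.11 for SNRPF ENST00000552085, -0.40 to 0.36 for SNRPG ENST00000454893 and -0.19 to 0.0037 for SNRPG ENST00000488400. The cause was not tested. No pairing of the libraries by replicate number was seen (correlations of deviations 0.087, 0.055 and -0.11). With 3 libraries in each group, this cannot show that no batch or culture was shared. With a replicate block, 7 transcripts, 2 genes and 0 ratios were called over the whole table, against 33, 29 and 12 without it. Among the members, 0 transcripts, genes or ratios were called with the block. The sums without ENST00000553192 and ENST00000404603 and the SmB share were also chosen after seeing the data. Read totals are not known here. Precision is limited by the spread of 3 libraries and by the division of reads among isoforms. Posterior SDs on the log2 scale reached 1.98 in D391N (SNRPE ENST00000470492).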
